A study of Rattus norvegicus with 25 samples.

Results

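Corticotropin-releasing hormone (CRH) is the peptide through which the brain starts the hormonal response to stress, and it also acts as a transmitter within the amygdala and hippocampus. CRH and its relative urocortin signal through 2 G protein-coupled receptors, CRHR1 and CRHR2, which raise cyclic AMP in the receiving cell. CRH-binding protein (CRHBP) is a secreted protein that holds the peptides in the extracellular space. The 5 genes of this system described here, Crh, Ucn, Crhr1, Crhr2 and Crhbp, were chosen by name, ignoring case, from the 26312 gene identifiers measured in each region, and each name matched 1 identifier per region (ENSRNOG00000012703, ENSRNOG00000006090, ENSRNOG00000004900, ENSRNOG00000011145 and ENSRNOG00000017890, in the same order).

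Bulk poly-A RNA was sequenced from punches of the left basolateral amygdala (BLA) and the left dorsal dentate gyrus (DG) of adult, wild-type male Sprague-Dawley rats. Stressed animals were immobilized for 3 h while exposed to fox urine, were later tested for anxiety-like behavior, and gave tissue on day 9 after stress. The stress-low group had composite anxiety scores of 0 to 2, the stress-high group had scores of 13 to 15, and the control animals stayed in the home cage and had scores of 0 to 6. The BLA comparisons used 6 control, 3 stress-low and 3 stress-high libraries, and the DG comparisons used 5, 3 and 3, each library from 1 animal. The comparisons ask whether stress with and without a lasting behavioral effect left different transcript levels more than a week later.

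The 25 libraries held 12709493 to 22801247 expected counts in the BLA and 11656439 to 19477932 in the DG. One control library per region stood apart on the leading principal component and was left out of the comparisons (from animal 2 in the BLA and from animal 35 in the DG). Prox1 and C1ql2, markers of dentate granule cells, were at 63.0 to 95.5 and 285 to 504 TPM (a length-scaled share of all transcripts) in the used DG libraries and at 2.03 to 2.93 and 1.85 to 4.28 TPM in the used BLA libraries, while 2 other listed granule cell markers did not separate the regions, with Calb1 at 97.0 to 160 TPM in the BLA and 80.8 to 127 TPM in the DG and Tdo2 at or near 0 in both. The pallial excitatory marker Slc17a7 was at 818 to 1184 TPM in the used BLA libraries. The BLA library of animal 35 carries a control library name and a stress entry in its treatment label, and was taken as control. In punches, fewer cells of a type and less RNA per cell cannot be told apart.

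Within a library, levels were compared between genes in TPM, which is scaled for transcript length. In the BLA the binding protein led, with Crhbp at 33.8 ± 5.46 TPM (SD, n = 12), followed by Crhr1 at 17.9 ± 2.47 TPM. These genes did not overlap with each other or with the rest, and Crhbp was above Crhr1 in 12 of 12 libraries. Crhr2 at 1.43 ± 0.729 TPM, Crh at 1.41 ± 0.311 TPM and Ucn at 1.29 ± 0.687 TPM formed a low group whose ranges overlapped. Crhr2 exceeded Crh in 6 of 12 libraries and Crh exceeded Ucn in 5 of 12, so these neighbours had no fixed order.

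In the DG the order was different below Crhbp, which again led at 8.38 ± 2.18 TPM (SD, n = 11). Crh was next at 3.11 ± 1.12 TPM, above Crhr1 at 2.25 ± 0.790 TPM in 10 of 11 libraries, although their ranges overlapped. Crhr2 and Ucn lay at the floor of detection. Crhr2 had 0 to 4 counts per library and 16 counts over all 11, and Ucn had 0 to 2 counts per library, 4 counts over all 11, and none in 8 of them. A level of 3 counts equals 0.764 to 1.33 TPM for Ucn in these libraries, so lower levels of this short transcript could not be told from none.

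The balance of receptor to ligand transcripts differed between the regions. Crhr1 was 9.92 to 18.8 times the level of Crh in the BLA, with a median of 13.0. In the DG it was 0.424 to 1.51 times the level of Crh, with a median of 0.677. Crhbp was 15.1 to 33.2 times the level of Crh in the BLA and 1.20 to 3.88 times in the DG. No BLA library overlapped with a DG library in either ratio. How often ratios of other genes separate the regions in this way was not counted.

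**Figure D1:**
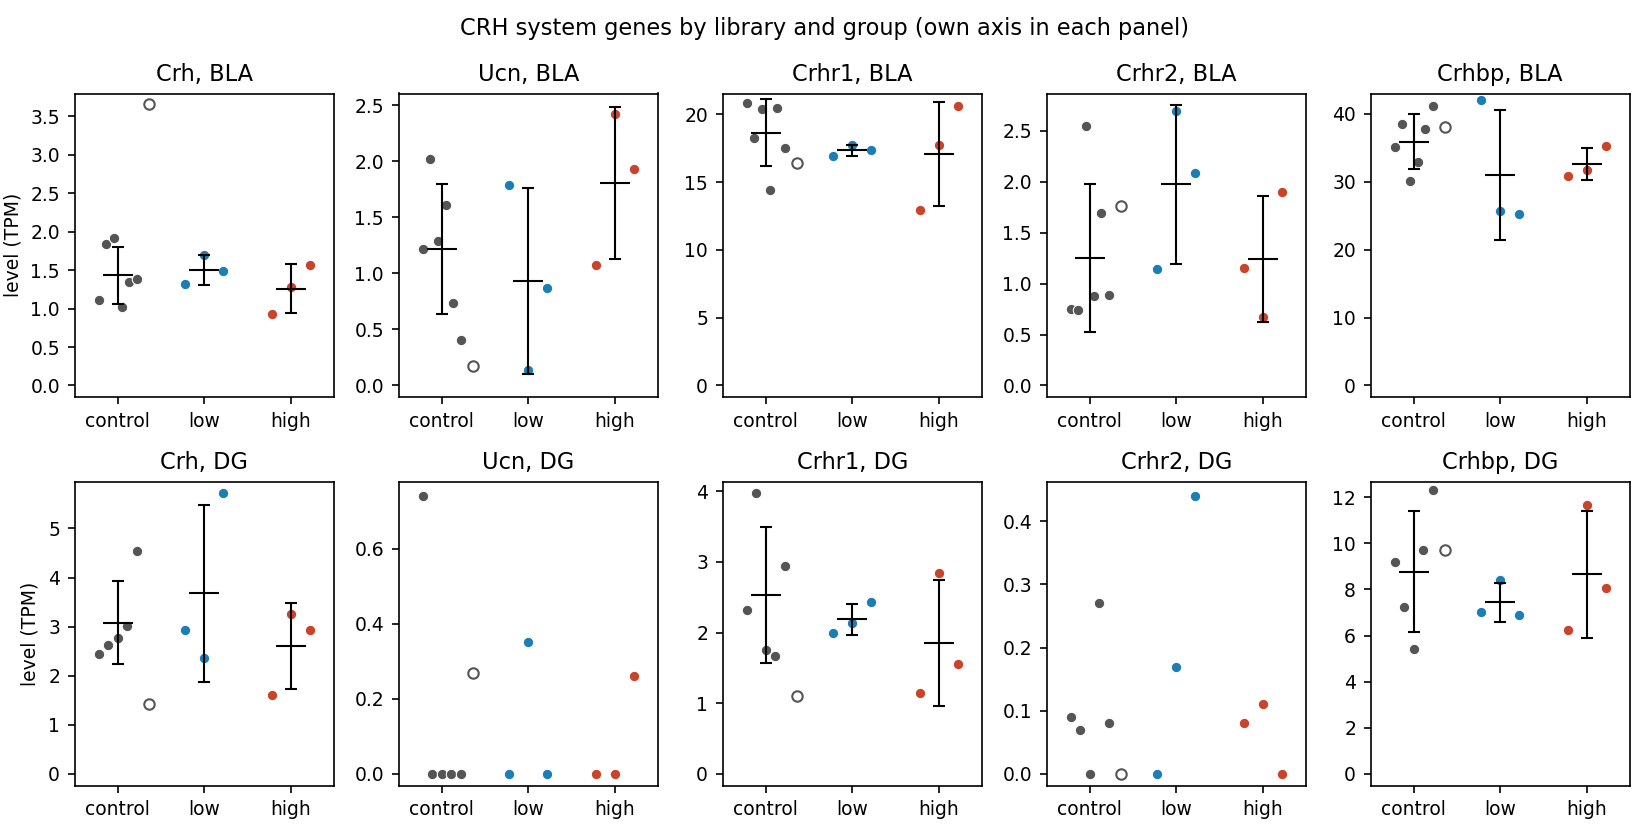
Level in TPM (vertical axis, own scale in each panel) of each gene by group (horizontal axis; low and high are stress-low and stress-high), BLA above and DG below. Filled points are used libraries, open points the left-out control library, bars the mean ± SD (not drawn for Ucn and Crhr2 in the DG, which lay at 0 to 4 counts). In every panel the groups overlap, and the open point of Crh in the BLA, 3.66 TPM, lies above the 12 used libraries.

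The 9 animals with a used library in both regions were also set side by side. Crhr1, the receptor with high affinity for CRH, was higher in the BLA in 9 of 9 animals, 5.24 to 13.2 times (median 8.49). Crhbp was higher in the BLA in 9 of 9, 2.72 to 7.12 times (median 4.37). Crh went the other way and was lower in the BLA in 9 of 9, at 0.260 to 0.664 times the DG level (median 0.422). The BLA and DG tables were quantified separately, so these differences between regions carry no test. How many of all genes differed in 9 of 9 animals was not counted, so the pattern is not shown to be particular to these genes.

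The files themselves show 1 way in which the tables differ. The effective length, over which reads are counted, was 50 bases shorter than the transcript in the BLA and 260 to 274 bases shorter in the DG, which raises the TPM of short transcripts more in the DG. On counts scaled to library size (CPM), which use no length, the median ratios of BLA to DG were 9.86 for Crhr1, 4.89 for Crhbp and 0.517 for Crh, with the same direction in 9 of 9 animals. Ucn had 84 counts over 12 BLA libraries and Crhr2 had 286, against 4 and 16 counts over the 11 DG libraries. In CPM, Ucn was at 0.0474 to 0.842 in the BLA and at 0 to 0.148 in the DG, so the lowest BLA libraries overlapped with the highest DG library.

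**Figure D2:**
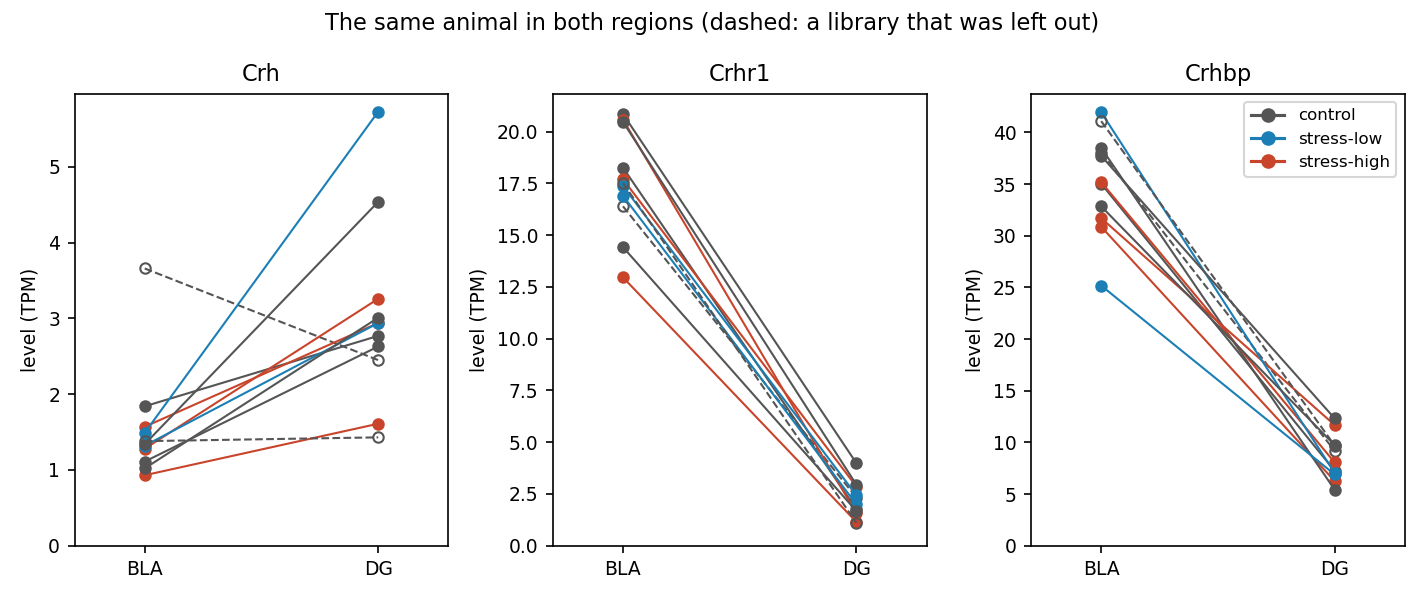
Level in TPM (vertical axis) of Crh, Crhr1 and Crhbp in the BLA and DG of the same animal (joined points, colored by group; open points and dashed lines mark the 2 animals with a left-out library). Crhr1 and Crhbp fall from BLA to DG in all 11 animals, and Crh rises in all but animal 2, whose BLA library was left out.

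Crh encodes the founding peptide of the family. In the BLA it was at 1.02, 1.11, 1.34, 1.38, 1.84 and 1.92 TPM in the 6 controls, a median of 1.36. The stress-low libraries were at 1.32, 1.49 and 1.70 TPM, and the stress-high libraries at 0.93, 1.28 and 1.57 TPM. The groups overlapped throughout. These levels rest on 13 to 26 counts per library, and the spread between libraries, a coefficient of variation of 22.1%, was no larger than the 24.1% that counting error alone gives at the mean count.

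The fold changes of Crh in the BLA were within their errors. Relative to control the log2 fold change was 0.05 ± 0.26 (SE) in stress-low and −0.20 ± 0.27 in stress-high. Stress-high against stress-low gave −0.25 ± 0.31, an interval of 0.536-fold to 1.33-fold at 95% confidence, with an adjusted p of 1 by edgeR. Leaving animal 2 in as a control turned the stress-low difference to −0.20.

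In the DG Crh was at 2.45, 2.63, 2.77, 3.01 and 4.54 TPM in the controls. Those of stress-low were at 2.37, 2.94 and 5.73 TPM, and the stress-high libraries at 1.61, 2.94 and 3.26 TPM. The highest library, animal 34, was stress-low, and the lowest, animal 7, was stress-high, while the middle libraries of the groups were close together. The stress-high to stress-low log2 fold change was −0.45 ± 0.36, from 0.428-fold to 1.25-fold, and it was −0.02 without animal 34, whose library was also the shallowest of the DG.

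Ucn encodes urocortin, which binds both receptors. In the BLA it was at 0.41, 0.74, 1.22, 1.29, 1.61 and 2.02 TPM in the controls. Stress-low libraries lay at 0.14, 0.87 and 1.79 TPM, and the stress-high libraries at 1.08, 1.93 and 2.42 TPM. Stress-high had the highest mean, 1.81 ± 0.678 TPM against 0.933 ± 0.827 in stress-low, but the lowest stress-high library was below the highest stress-low library. The log2 fold change, 1.05 ± 0.68, had the widest interval of any member tested within a region, 0.758-fold to 5.65-fold (edgeR unadjusted p = 0.143, adjusted p = 1).

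This difference rested on few counts and moved with single libraries. Ucn had 1 to 12 counts per BLA library, and the stress-low library of animal 30 had 1. Without it the stress-high to stress-low log2 fold change of Ucn was 0.43, and the stress-low to control value went from −0.53 to 0.09. Without the stress-low animal 22, which had 8 counts, the same values were 1.86 and −1.34. In the DG no fold is given for Ucn, which was seen only as 2 counts in 1 control, 1 count in 1 stress-low and 1 count in 1 stress-high library.

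The lowest Ucn levels in the BLA were in the libraries with the highest levels of certain tissue markers. A list of 10 markers of central amygdala and striatum, all found in the files, summed to 285.6 TPM in animal 30 and 301 TPM in the control animal 35, against 124 to 172 TPM in the other used BLA libraries, and to 484 TPM in the left-out animal 2. These 3 libraries had the lowest Ucn of the 13, at 0.14, 0.41 and 0.17 TPM. These values rest on 1, 2 and 1 counts, below the floor of 3 counts, so they cannot be told from none. The next lowest, control animal 32, had 4 counts. By group, the summed list ranged from 124 to 301 TPM in control, from 143 to 286 TPM in stress-low and from 143 to 172 TPM in stress-high. The listed markers did not vary alike. Adora2a, a striatal marker, was at 1.65 to 27.8 TPM in the used libraries and at 50.2 TPM in animal 2. Prkcd was at 9.97 to 15.5 TPM and Pde10a at 24.1 to 33.7 TPM in the used libraries. Ppp1r1b, the highest of the list, was at 42.7 to 123 TPM. In the used DG libraries the list summed to 137 to 175 TPM, with Ppp1r1b at 90.8 to 119 TPM. The part of tissue content in the Ucn values was not tested. Leaving out animals 30 and 35 together, an alternative chosen after seeing the data, gave log2 fold changes of Ucn of 0.43 between the stress groups, −0.08 for stress-low and 0.35 for stress-high against control. Both libraries held the lowest Ucn of those used, so leaving them out moves the values whatever their tissue content.

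Crh in the left-out BLA library of animal 2 was at 3.66 TPM from 47 counts, above the 0.93 to 1.92 TPM of the 12 used libraries. It was the library with the highest sum of central amygdala and striatum markers, including Prkcd at 26.1 TPM against 9.97 to 15.5 in the used libraries. Animals 30 and 35, with the next highest sums, had Crh at 1.70 and 1.38 TPM, within the range of the rest. Animal 2 was the only one of 11 animals in which Crh was higher in the BLA than in the DG.

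**Figure D3:**
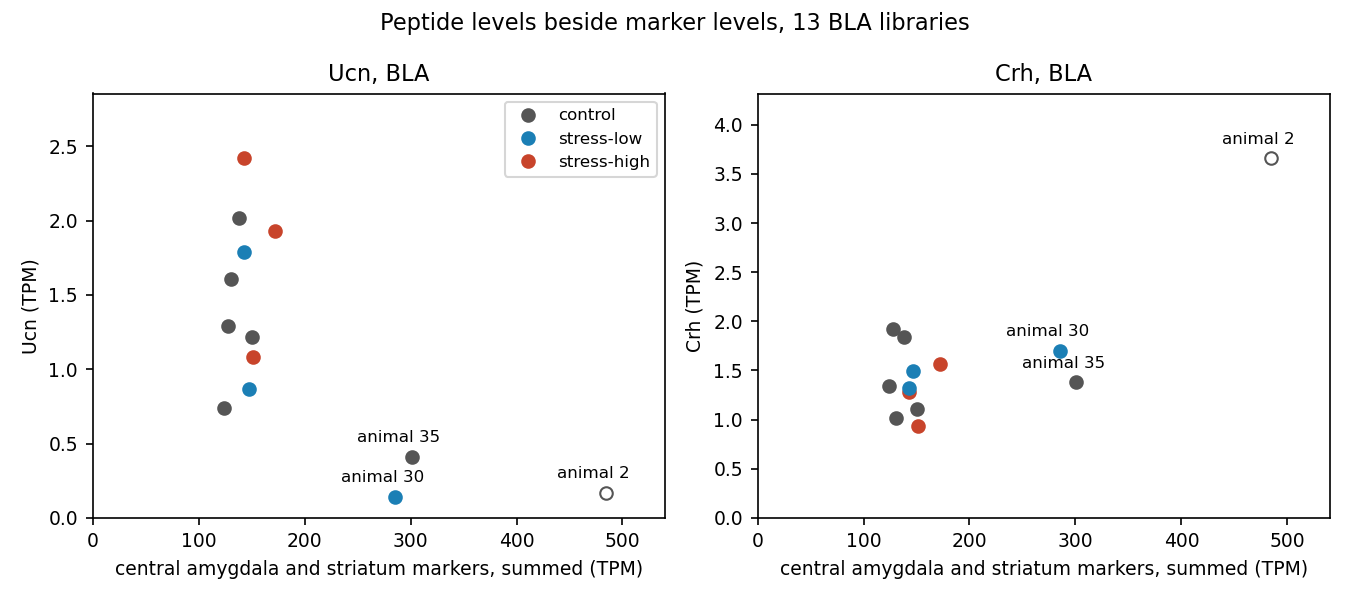
Ucn (left) and Crh (right) in TPM (vertical axes) beside the summed TPM of 10 central amygdala and striatum markers (horizontal axes) in 13 BLA libraries, colored by group, with the left-out library open. The 3 libraries with the highest marker sums, animals 2, 30 and 35, have the lowest Ucn (1, 1 and 2 counts, below the floor of 3 counts). Animal 2 has the highest Crh at 3.66 TPM.

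Crhr1 was the most evenly expressed member in the BLA. The controls were at 14.4, 17.5, 18.3, 20.4, 20.5 and 20.9 TPM, the stress-low libraries at 16.9, 17.4 and 17.8 TPM, and the stress-high libraries at 13.0, 17.7 and 20.6 TPM. The stress-low range lay inside both other ranges. The log2 fold changes were −0.13 ± 0.11 for stress-low and −0.10 ± 0.11 for stress-high against control, and 0.03 ± 0.12 between the stress groups. With 166 to 280 counts per library these were the tightest intervals of any member, 0.851-fold to 1.22-fold between the stress groups, 0.781-fold to 1.07-fold for stress-low and 0.797-fold to 1.09-fold for stress-high. The sign of the value between the stress groups turned on the TPM scale (−0.04).

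In the DG Crhr1 was at 1.67, 1.75, 2.32, 2.94 and 3.98 TPM in the controls. The stress-low libraries were at 1.99, 2.14 and 2.43 TPM, and the stress-high libraries at 1.14, 1.56 and 2.85 TPM. Again the groups overlapped, and the 3 stress-low libraries lay inside the range of the controls. The log2 fold changes were −0.22 ± 0.36 for stress-low and −0.41 ± 0.35 for stress-high against control. Leaving out single libraries moved the latter from −0.88 (without stress-high animal 19) to −0.15 (without control animal 14). Between the stress groups the value was −0.18 ± 0.40, from 0.483-fold to 1.61-fold, so the 12 to 48 counts per library left room for changes of a size that the BLA data did not.

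Crhr2, the receptor that prefers the urocortins, ranged from 0.67 to 2.69 TPM among BLA libraries. The controls were at 0.74, 0.75, 0.88, 0.89, 1.69 and 2.55 TPM. Those of stress-low were at 1.14, 2.09 and 2.69 TPM, and the stress-high libraries at 0.67, 1.15 and 1.90 TPM. The ranges of the groups overlapped, but no stress-low library was below 1.14 TPM, while control reached down to 0.74 and stress-high to 0.67 TPM. Its coefficient of variation, 51.0%, was above the 20.5% given by counting error at the mean count. The log2 fold change of stress-low against control was 0.66 ± 0.38, from 0.897-fold to 2.77-fold, the smallest p of any member (edgeR unadjusted p = 0.106, rank 1032 of 15230 genes, adjusted p = 0.9998). It was 0.32 without animals 30 and 35. Stress-high against stress-low gave −0.66 ± 0.44, which was −0.40 without stress-low animal 30, −0.41 without stress-high animal 19 and −0.90 without either stress-high animal 20 or stress-low animal 22. Stress-high against control gave 0.00 ± 0.39. In the DG Crhr2 was at the floor in each group and no fold is given.

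Crhbp, the binding protein, had the most counts of any member, 443 to 785 per library in the BLA. The controls were at 30.1, 32.8, 35.0, 37.7, 38.5 and 41.1 TPM. Stress-low libraries lay at 25.2, 25.7 and 41.9 TPM, and the stress-high libraries at 30.9, 31.7 and 35.2 TPM. The stress-low group held both the 2 lowest libraries of the region, animals 34 and 30, and the highest, animal 22. The stress-low to control log2 fold change was −0.26 ± 0.15, from 0.666-fold to 1.05-fold (edgeR unadjusted p = 0.108, adjusted p = 0.9998), and it was −0.55 without animal 22, −0.11 without animal 30 and −0.06 without animals 30 and 35. Stress-high gave −0.14 ± 0.15 against control and 0.12 ± 0.17 against stress-low.

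In the DG Crhbp was at 5.41, 7.24, 9.17, 9.72 and 12.3 TPM in the controls. The stress-low libraries were at 6.89, 7.04 and 8.42 TPM, and the stress-high libraries at 6.25, 8.05 and 11.7 TPM. Both stress groups lay within the control range. The log2 fold changes were −0.22 ± 0.24 for stress-low and 0.01 ± 0.23 for stress-high against control. Stress-high against stress-low gave 0.23 ± 0.27, from 0.786-fold to 1.75-fold.

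Counted over all members, no difference between groups passed the adjusted threshold of 0.05 in edgeR, where 0% of genes were called in all 6. DESeq2 called 0 members too and at most 4 genes in a comparison. With p under 0.05 before adjustment, 0 of 5 members were counted in each BLA comparison, against 1.98% of the 15230 genes for stress-high over stress-low, 2.75% for stress-low over control and 2.57% for stress-high over control. In the DG, 0 of the 3 members that passed the count filter (Crh, Crhr1 and Crhbp) were counted, against 3.12%, 6.90% and 2.19% of 14080 genes in the same order. Shares this small give few or no calls among 3 to 5 genes. Exact two-sided permutation tests of mean TPM, 30 in all, gave a smallest p of 0.2 and a smallest adjusted p of 0.947, where 3 against 3 libraries cannot go below 0.1. In none of the 30 did the groups separate without overlap, which 6.11% of BLA genes and 8.57% of DG genes did between the stress groups. In the other comparisons 1.39% and 1.02% of BLA genes and 3.68% and 1.55% of DG genes did so, for stress-low and stress-high against control.

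The stress-low to stress-high change was also compared between regions in 1 fit. The DG change minus the BLA change was −0.19 ± 0.48 for Crh, −0.19 ± 0.38 for Crhr1 and 0.13 ± 0.34 for Crhbp on the log2 scale (edgeR, adjusted p = 0.9999 for each). Animals 7, 19, 20, 22 and 34 gave a library in each region, which this fit treats as independent. With the animal as a block, added after seeing the data, the differences were −0.54 ± 0.50 for Crh, −0.22 ± 0.40 for Crhr1 and 0.34 ± 0.35 for Crhbp (edgeR, adjusted p = 1 for each). Without the block, none of the members was counted at an unadjusted p under 0.05, where 2.00% of 15453 genes were. The interval for Crhr1 ran from 0.512-fold to 1.51-fold and that for Crh from 0.440-fold to 1.74-fold.

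**Figure D4:**
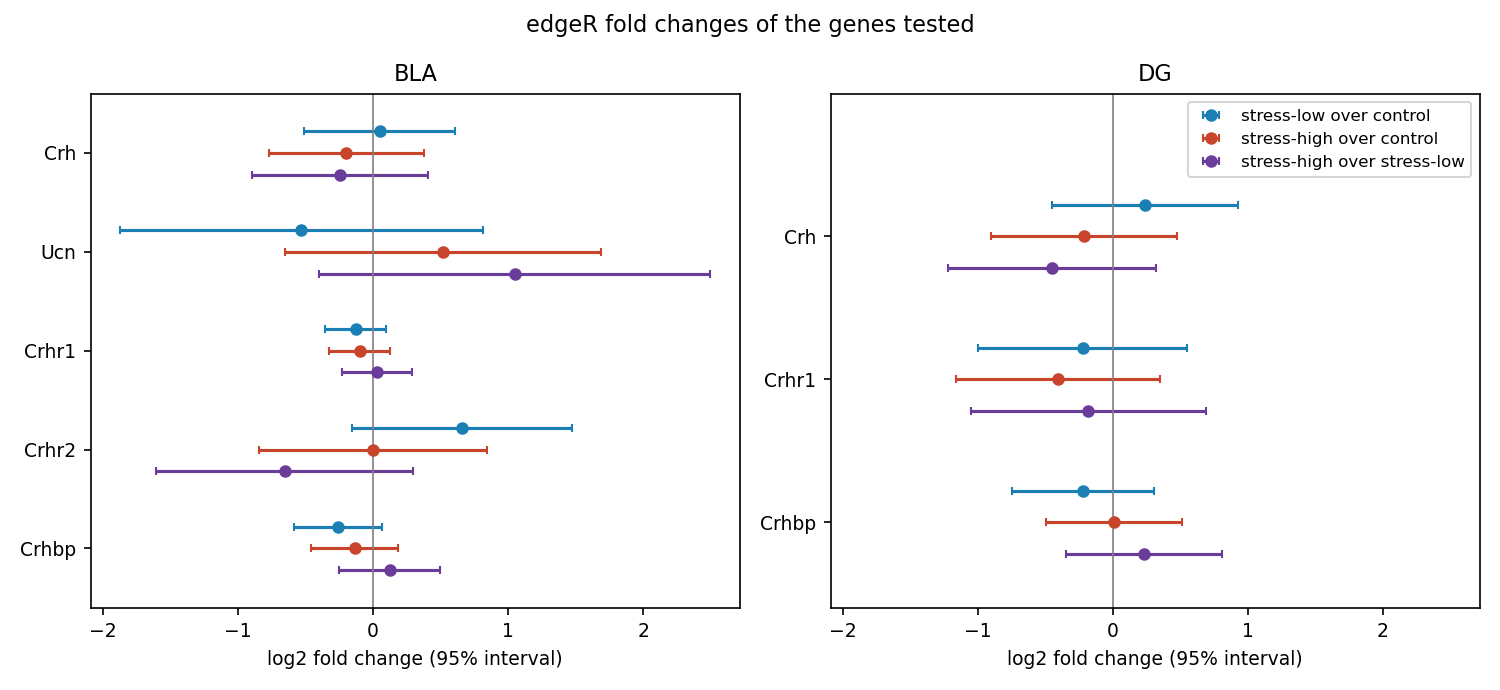
Log2 fold change (horizontal axis) with its 95% interval for each member tested by edgeR in the BLA (left, 5 genes) and DG (right, 3 genes). Every interval includes 0, the narrowest are those of Crhr1 in the BLA, and the widest those of Ucn.

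The controls carry a label of low or high score, which offers a comparison without stress. In the BLA, Crh was at 1.02 to 1.92 TPM in 3 low-score and 1.11 to 1.84 TPM in 3 high-score controls, and Crhr1 was at 14.4 to 20.4 and 18.3 to 20.9 TPM. In the DG, Crhbp was at 9.17 and 9.72 TPM in 2 low-score and at 5.41 to 12.3 TPM in 3 high-score controls. These ranges overlapped, as did those of the other members except in the DG for Crhr2, where both labels were at the floor (0 to 0.08 TPM in high-score and 0.09 and 0.27 TPM in low-score controls).

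Members were then compared with each other across libraries on log2(TPM + 1). Of 13 pairs within a region, none passed an adjusted p of 0.05 by permutation. The pair with the highest correlation was Crh and Crhr1 in the BLA, with Pearson r = 0.592 (permutation p = 0.0417, adjusted p = 0.319) and Spearman rho = 0.455 (p = 0.140, adjusted p = 0.455). It was r = 0.264 without the 2 libraries farthest from the median of Crh, so it rests on those libraries. Crhr2 and Crhbp in the BLA gave r = −0.579 (permutation p = 0.0513, adjusted p = 0.319) and rho = −0.497 (p = 0.104, adjusted p = 0.455), and −0.354 without the 2 farthest. The level of a member in the BLA was also compared with that in the DG of the same animal, for 3 members in 9 animals. Crhr1 gave r = 0.666 (exact permutation p = 0.0495, adjusted p = 0.149) and rho = 0.55 (exact permutation p = 0.133, adjusted p = 0.398), with r = 0.304 without the 2 animals farthest from the median in the BLA, so it rests on those animals. No member passed the adjusted threshold.

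The same was done for 48 relations of a member with the mean of a marker list, and none passed the adjusted threshold. By Pearson correlation, 5 of the 48 had an unadjusted permutation p under 0.05, and all 5 are given here. Crhbp and the pallial excitatory list in the BLA gave r = 0.702 (permutation p = 0.0124, adjusted p = 0.298) and rho = 0.790 (permutation p = 0.00329, adjusted p = 0.158), with r = 0.664 without the 2 libraries farthest from the median of the list. Crhr1 and the interneuron list in the DG gave r = 0.682 (permutation p = 0.0215, adjusted p = 0.331) and rho = 0.536 (permutation p = 0.0927, adjusted p = 0.629), with r = 0.337 without the 2 farthest. Crh and the granule cell list in the BLA gave r = 0.638 (permutation p = 0.0276, adjusted p = 0.331). The rho was 0.615 (permutation p = 0.0373, adjusted p = 0.580), with r = 0.259 without the 2 farthest. Crhbp and the choroid plexus list in the DG gave r = 0.630 (permutation p = 0.0417, adjusted p = 0.40). Here rho was 0.618 (permutation p = 0.048, adjusted p = 0.580), with r = 0.626 without the 2 farthest. That list summed to 0.08 to 0.59 TPM in the DG. For Ucn and the central amygdala and striatum list the libraries of animals 30 and 35 formed a cluster of their own, so no correlation over all libraries is given. This relation had the smallest Pearson p of the 48 over the 12 libraries (permutation p = 0.00616, adjusted p = 0.296, and adjusted p = 0.0662 with the left-out library in), while among the 10 libraries outside the cluster r was −0.101. Its Spearman p over the 12 libraries was 0.0791 by permutation (adjusted p = 0.629). Markers of choroid plexus, a tissue in which Crhr2 is known to be expressed, summed to 0.23 to 0.75 TPM over 6 genes in the used BLA libraries, with Ttr at 0 counts in all 13.

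For each member the genes with the most similar profile over the libraries of a region were listed as a description. In the BLA, Crh went most closely with Cnot3, Rnf208 and Sap30bp (r = 0.936, 0.930 and 0.929, n = 12), and Crhr1 with Ppef2, Mtmr3 and Bace1 (r = 0.953, 0.946 and 0.941). Such values were common, since 423 of 13266 genes reached r = 0.8 with Crh and 484 with Crhr1. Crhr2 went most closely with Spats2l, Tada2a and Tyw1 (r = 0.938, 0.913 and 0.903), with 113 genes at 0.8 or above. Few genes were as close to the others, 6 to Crhbp (led by Frmd6, Mrps7 and Hist2h3c2, r = 0.861, 0.860 and 0.820) and 3 to Ucn (Rbms2, Zdhhc12 and Gm960, r = 0.851, 0.837 and 0.822). The spread of Crh in the BLA, 22.1%, was no larger than its counting error of 24.1%. How much of its profile was that error was not tested. Ucn rested on 1 to 12 counts per BLA library. In the DG over 11 libraries, Crhr1 went most closely with the neuropeptide Npy, a product of interneurons (r = 0.841), and then Nkap and Psph (r = 0.829 and 0.826). Crh was led by Vti1b, Mrpl20 and Ipcef1 (r = 0.901, 0.883 and 0.880) and Crhbp by RGD1560394, Polr3g and Nrg1 (r = 0.897, 0.892 and 0.881). Of 12888 genes in the DG, 4 reached r = 0.8 with Crhr1, 24 with Crh and 18 with Crhbp. Crhr1 rested on 12 to 48 counts per DG library, with a counting error of 20.8% at the mean count.

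The wider pathway was described with a list of 35 genes, of which 34 were found by name. The other ligands of the family were all but undetected. Ucn2 had 1 count in each of 2 BLA libraries and none in the DG, and Ucn3 had none in any of the 25 libraries. At a floor of 3 counts per library, such levels cannot be told from none. Receptor signaling genes were abundant by comparison, with Gnas, the G protein that couples these receptors to adenylyl cyclase, at 1620 to 2010 TPM in the BLA and 1644 to 1936 TPM in the DG. Cpe and Pcsk2, which process peptide precursors, were at 1557 to 1826 and 99.8 to 141 TPM in the BLA and at 1010 to 1428 and 128 to 182 TPM in the DG.

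Of the listed genes 31 were tested in the BLA and 30 in the DG, and none passed the adjusted threshold in any comparison by edgeR. In the BLA, stress-low over control had 0 higher and 3 lower listed genes with an unadjusted p under 0.05 (Crem, Tbx19 and Nr4a1), where 1.16% of all genes were higher and 1.60% lower. The other BLA comparisons had none, where 0.998% were higher and 0.985% lower for stress-high over stress-low, and 1.16% and 1.42% for stress-high over control. In the DG, stress-low over control had 1 higher (Creb1) and 1 lower gene (Tbx19), where 3.88% of all genes were higher and 3.03% lower. Stress-high over stress-low had 1 higher (Tbx19) and 1 lower (Adcy8), where 1.73% were higher and 1.40% lower, and stress-high over control had none, where 1.07% and 1.12% were. The median log2 fold change of the list ran from −0.012 to 0.013 over the 6 comparisons, and that of all tested genes from −0.0037 to 0.0011.

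Tbx19 encodes the transcription factor that drives the CRH target Pomc in the pituitary. In the DG it was at 0.77, 1.70 and 1.92 TPM in stress-low, below the 2.69 to 3.51 TPM of the 5 controls and the 2.80 to 3.96 TPM of the 3 stress-high libraries. The left-out control library of animal 35 was at 1.82 TPM, within the stress-low range. The log2 fold change was 1.28 ± 0.27 for stress-high against stress-low (edgeR unadjusted p = 0.000346, adjusted p = 0.9996) and −1.06 ± 0.25 for stress-low against control (unadjusted p = 0.00101, adjusted p = 0.718). The study singled this gene out from these same libraries, so its place here is no independent evidence. In the BLA Tbx19 was at 0.70 to 1.71 TPM in stress-low and 1.10 to 2.95 TPM in control (log2 fold change −0.77 ± 0.30, unadjusted p = 0.0212). Pomc itself was at 1.3 to 3.05 TPM in the BLA and 1.59 to 2.81 TPM in the DG, and was not counted in any comparison.

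The other listed genes below the unadjusted threshold had smaller differences. Nr4a1, an immediate early gene, was at 19.5 to 21.6 TPM in stress-low and 19.3 to 31.5 TPM in control in the BLA (−0.37 ± 0.14), and Crem, a cyclic AMP responsive factor, was at 7.73 to 13.3 and 10.4 to 12.0 TPM (−0.29 ± 0.13). The mean TPM of Crem was 10.4 in stress-low and 10.9 in control, a smaller difference than the fold change from counts. Creb1 in the DG was at 8.18 to 13.9 TPM in stress-low and 8.08 to 8.94 TPM in control (0.34 ± 0.14). Adcy8, an adenylyl cyclase, was at 6.44 to 10.3 TPM in stress-low and 5.80 to 6.34 TPM in stress-high in the DG (−0.51 ± 0.21).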

How the data were processed

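RNA-seq libraries of the BLA (13) and DG (12) were grouped by the sample labels. Reads had been mapped by the authors to the rat assembly Rn5 (STAR 2.6.0a), and genes of Ensembl build 75 were quantified with RSEM 1.3.1. They deposited for each region 1 long table with an expected count (RSEM's estimate of reads per gene, which need not be whole), a TPM value (a share of transcripts scaled to a fixed sum), an FPKM value (the deposited FPKM was not used), a length and an effective length in bases for each gene. One control library per region was left out, the control farthest from the median on PC1 of log2(TPM + 1).

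Expected counts were rounded and tested over all genes with edgeR 4.0.16 in R 4.3.3 (TMM scaling, genes kept by filterByExpr at 10 counts, quasi-likelihood test, 1 fit of 3 groups per region, Benjamini-Hochberg, threshold 0.05). The study used EBSeq, which was not run here. Intervals at 95% use the fit's degrees of freedom. TPM of members were compared by exact two-sided permutation tests, and correlations by permutation (100000 resamples, or every order for 9 animals). Similar genes were the 3 with the highest r among named genes of mean TPM 1 or more. The genes and lists were chosen with earlier results of these data known. Each member is named, as are pathway genes with an unadjusted p under 0.05 and the ligands. Other pathway and marker genes were named after their values were seen. The marker lists were for granule cells, CA3, pallial excitatory neurons, central amygdala and striatum, GABA interneurons and choroid plexus. One listed name each of the pathway (Adrbk2) and the excitatory list (Neurod2) was not found, and Drd1 stood in for Drd1a.

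The alternatives were a fit by DESeq2 1.42.0, size factors by RLE, no count filter, only the groups compared, all libraries, a replicate block, limma 3.58.1 on log2(TPM + 1) and log2(TPM + 0.1), and leaving out each library. No pair of libraries had identical counts. Each library is 1 animal. The fits were tested on simulated data. Counting errors and floors cover the counting of reads only.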

Additional observations from a re-analysis of the deposited data

Results flagged for a closer look

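In 12 control groups of a region (the 5 members and the summed central amygdala and striatum markers), 1 library was tested for lying far from the rest, which chance alone finds in about 1 of 20 groups, and 3 did so. Crh in the DG controls was at 4.54 TPM in animal 32 against 2.45 to 3.01 in the other 4. Ucn in the DG controls was at 0.74 TPM in animal 2, from 2 counts, and at 0 in the other 4, which is at the floor. The markers of central amygdala and striatum summed to 301 TPM in the BLA control animal 35, with the next highest used control at 150 TPM.

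The BLA library of animal 2, which no comparison used, had Crh at 3.66 TPM, where the highest other control was at 1.92, and the same markers at 484 TPM, where the highest other control was at 301. The relation of these measures was not tested.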

How the results depend on the processing

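No member fold change passed the adjusted threshold under any alternative (smallest adjusted p 0.756). Of 27 member fold changes, 12 kept their sign under every alternative and 15 turned under at least 1, and for those the cause was not tested. On the TPM scale (limma), stress-high over stress-low for Crhr1 in the BLA was −0.043 with and without the filter and −0.047 with a pseudocount of 0.1, and stress-high over control for Crhbp in the DG was −0.012 in all 3. With all libraries, Crh in the BLA was −0.20 (stress-low over control), Crhr2 in the BLA −0.055 and Crhbp in the DG −0.068 (both stress-high over control). Crhr2 in the BLA was −4.4e-05 with DESeq2. Without animals 30 and 35, chosen after seeing the data, Crhbp was −0.029 (stress-high over stress-low), Crh −0.013 (stress-low over control) and Crhr2 −0.081 (stress-high over control) in the BLA, and genes with an unadjusted p under 0.05 between the stress groups there went from 302 to 629.

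Leaving out each library in turn gave for stress-high over stress-low −0.050 to 0.15 for Crhr1 and −0.029 to 0.41 for Crhbp (BLA), and −0.66 to 0.046 for Crhr1 and −0.064 to 0.40 for Crhbp in the DG. For stress-low over control it gave −0.017 to 0.14 for Crh and −1.34 to 0.085 for Ucn (BLA), and −0.20 to 0.48 for Crh and −0.35 to 0.039 for Crhr1 in the DG. For stress-high over control it gave −0.18 to 0.022 for Crhr1 and −0.25 to 0.30 for Crhr2 (BLA), and −0.42 to 0.015 for Crh and −0.29 to 0.18 for Crhbp in the DG. The difference between regions ran from −0.44 to 0.24 for Crh, −0.67 to 0.039 for Crhr1 and −0.17 to 0.30 for Crhbp.

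Genes past the adjusted threshold numbered 0 in each edgeR comparison. DESeq2 gave 1 for each of the stress groups over control in the BLA. In the DG it gave 3, 4 and 1 for stress-high over stress-low, stress-low over control and stress-high over control. For stress-high over stress-low in the BLA, limma gave 2 with a pseudocount of 0.1 and 1 without the filter. For stress-low over control in the BLA it gave 1 and, with a pseudocount of 0.1, 2. For stress-high over control in the BLA, fitting only the groups compared gave 1, limma without the filter 2, and leaving out animals 30 and 35 gave 1. Leaving out each library gave 0 to 1 for stress-high over stress-low and over control in the BLA, the 1 in both without stress-high animal 20.

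With the replicate number as a block (replicate block), Ucn (BLA) was 1.06 and Crh (DG) −0.17 for stress-high over stress-low, and no call changed. The numbers do not pair the samples, since the deviations of same-numbered libraries had a median correlation of 0.0016 (BLA) and −0.026 (DG), above 0.1 for 0 of 13 and 1 of 14 pairs. Ucn in both regions and Crhr2 in the DG were limited by counts.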

Other observations

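Marker lists of other cell types were summed in TPM over the used libraries. The dentate granule list summed to 103 to 166 TPM in the BLA and 443 to 732 TPM in the DG, the CA3 pyramidal list to 77.6 to 112 and 266 to 397, and the pallial excitatory list to 942 to 1379 and 1710 to 2221. The BLA sum of the granule list was mostly Calb1, at 97.0 to 160 TPM, with Prox1, C1ql2, Dsp and Tdo2 each at 4.28 TPM or less. The GABA interneuron list summed to 1329 to 1597 and 921 to 1283, the central amygdala and striatum list to 124 to 301 and 137 to 175, and the choroid plexus list to 0.23 to 0.75 and 0.08 to 0.59. Ppp1r1b was the highest marker of the central amygdala and striatum list, at 42.7 to 123 TPM in the BLA and 90.8 to 119 TPM in the DG. No marker passed the adjusted threshold (edgeR). At an unadjusted p under 0.05, stress-low over control had Bok (CA3) higher and Dsp (granule cells) lower in the BLA and Ppp1r1b (striatum) lower in the DG, and stress-high over control had Bok and Gad2, an enzyme of GABA synthesis, higher in the BLA. Their part in the values of the CRH system genes was not tested.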
